A study of Mus musculus with 6 samples.

Results

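Polyadenylated RNA of 6 mouse retinas, 1 retina per library, was sequenced to ask how the transcriptome differs without Samd7, and the 16 genes described here are those that were low in wild type and clearly present in the retinas labelled Samd7 KO. They were chosen on the measured values. A gene was taken when its mean was under 100 normalized reads in wild type and at least 100 in the libraries labelled KO, and when the ratio of those means, each with 1 added, was at least 4. Of 49997 genes in the deposited table, 44 met these limits. A further 20 of them were set aside for a symbol of a predicted, unnamed or pseudogene model, and 8 because they stood on a list of symbols to leave out, which left 16. The 3 KO retinas carry the genotype label Samd7 knockout (-10A) and were taken at postnatal day 31. The 3 wild-type retinas are labelled c57Bl6/j wt and were taken at postnatal day 36. All 6 are labelled male, and no treatment is named. Age and genotype cannot be told apart, and the KO genotype label names no strain. The labels do not say whether the retinas came from separate mice, so the spread between libraries may be smaller than that between animals. A normalized read is the authors' read count of a gene divided by 1 size factor per library, and 1 read was worth between 0.856 and 1.13 normalized reads.

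The 16 genes were low but not absent in wild type: each had reads in every wild-type library, the lowest being 7 reads. Their wild-type means ran from 8.86 to 90.0 normalized reads with a median of 39.4, where the 20277 genes that passed the filter on low values had a median of 506. In the libraries labelled KO their means ran from 100.1 to 4377 with a median of 279, against 531 over the tested genes. The limits of the rule set the low start and the rise, so neither is a result. In the KO libraries Bpifb6 had by far the highest mean of the 16. These levels are not scaled for gene length. All 16 passed that filter, which asked for at least 10 normalized reads in at least 3 libraries. For each of the 16, all 3 KO libraries lay above all 3 wild-type libraries. Among all tested genes 15.9% had that order. The genes were chosen on this same contrast, so nothing is read from their share, and no test of them is given.

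Samd7 is a photoreceptor protein with a sterile alpha motif and belongs to a Polycomb repressive complex. Polycomb complexes modify histones and hold genes of other tissues and other developmental stages silent, and in mammals they are found mostly at promoters rich in CpG, the cytosine-guanine pair that can be methylated. Neighbouring genes can share regulatory DNA and chromatin state, so the genes that flank a silenced gene are often examined with it. Several of the 16 genes are known from tissues other than the retina: Bmp15 from the oocyte, Slc30a2 from the mammary gland and Gje1 from the lens.

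The libraries held 44.2 to 62.8 M reads. Samd7 itself was higher under the KO label, at 57837, 45755 and 44932 normalized reads against 6349, 8141 and 8122 in wild type, so its read count does not separate a knockout from wild type in the labelled direction, and the groups are named here by their labels. Of all tested genes limma called 1376 higher in the libraries labelled KO, or 6.79%, and 1056 lower, or 5.21%, at an adjusted p under 0.05. The higher share of the calls was 56.6%, and 71.2% after rescaling to equal total reads. Several marker lists differed between the groups. The summed level of 11 cone markers was 762755 to 804911 normalized reads in the KO libraries and 179504 to 185306 in wild type, with 6 higher and 1 lower. That of 10 reactive glia markers was 25571 to 30844 against 9676 to 11223 (9 higher, 1 lower). The 12 microglia and macrophage markers summed to 6276 to 6822 against 3888 to 4485 (9 higher, 0 lower), and the 5 red blood cell markers to 5661 to 8293 against 1467 to 2232 (5 higher). The 9 rod markers were lower, at 2897450 to 3174460 against 4531060 to 4933920 (6 lower, 0 higher), as were 10 pigment epithelium markers, at 1293 to 2385 against 3999 to 6401 (8 lower). The sums of 5 other lists did not overlap between the groups either. Sums were higher in the KO libraries for the 4 astrocyte markers (8312 to 10407 against 3104 to 4103, with 1 gene called higher and 0 lower). The same held for the 8 endothelium and pericyte markers (7261 to 8122 against 4764 to 5573, 1 higher and 0 lower). The 10 bipolar markers summed to 64293 to 69725 against 60769 to 62938, though 0 of them were called higher and 1 lower. The horizontal cell markers summed to 5393 to 6532 against 5026 to 5359, with 0 called in either direction. Sums were lower for the oligodendrocyte markers (509 to 549 against 633 to 659), again with 0 called. None of these lists, and none of the others tried, holds any of the 16 genes. In whole retina a change in the number of cells of a type and a change in RNA per cell cannot be told apart, and the part of these cell types in the results was not tested.

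**Figure D1:**
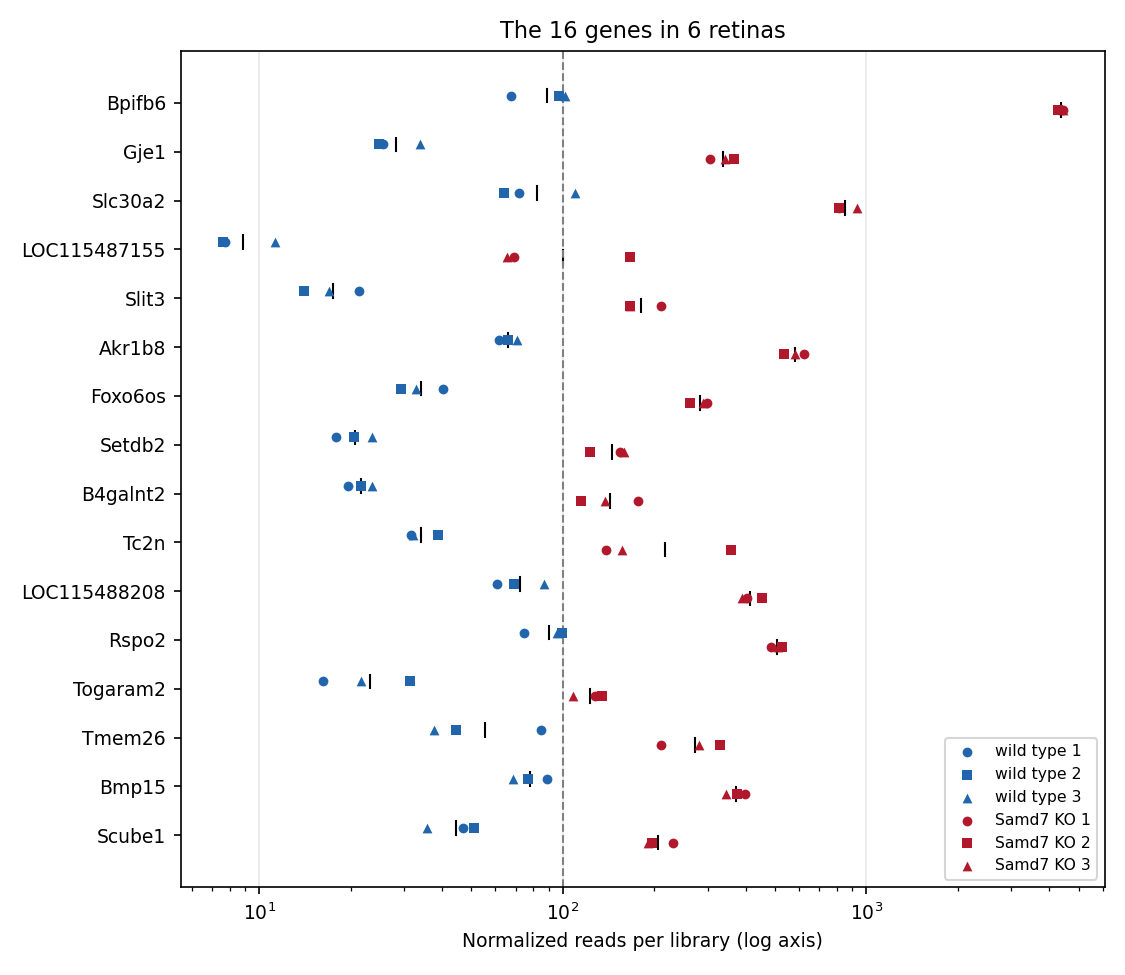
Normalized reads of the 16 genes (log axis) in each of the 6 libraries, with wild type in blue, Samd7 KO in red, a marker shape per replicate and a black bar at the group mean; the dashed line is at 100. The red markers lie right of the blue ones in each row, Bpifb6 is the farthest right, and Samd7 KO 2 stands apart for LOC115487155 and Tc2n.

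The secreted signals among them were Slit3, Rspo2, Bmp15 and Scube1. Slit3, a guidance ligand of the Robo receptors, had 210, 166 and 166 normalized reads in KO 1, 2 and 3 and 21.4, 14.1 and 16.9 in wild type 1, 2 and 3. Its group mean was 10.3-fold higher under the KO label, and the lowest KO library was 7.76 times the highest wild-type one. Rspo2, an R-spondin that strengthens Wnt signalling by binding Lgr receptors and removing the ubiquitin ligases Znrf3 and Rnf43 from the cell surface, had 485, 529 and 510 against 74.4, 99.6 and 96.0, a 5.64-fold difference of means. It had the highest wild-type mean of the 16, at 90.0 ± 13.6 (SD, n = 3).

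Bmp15 is a ligand of the transforming growth factor beta superfamily best known from the oocyte. It had 398, 374 and 345 normalized reads in the KO libraries and 89, 76.8 and 68.7 in wild type, 4.76-fold higher. Scube1, a secreted and cell-surface protein with epidermal growth factor repeats and a CUB domain, had 230, 197 and 192 against 47.1, 50.9 and 35.8, which is 4.63-fold and the smallest fold of the group. The libraries within a group differed little for these 4 genes: the highest KO library was 1.09 to 1.27 times the lowest, and the highest wild-type library 1.29 to 1.52 times the lowest.

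Among membrane channel and transport proteins, Slc30a2, the zinc transporter ZnT2 that loads zinc into vesicles, had 810, 812 and 933 normalized reads in the KO libraries and 71.9, 63.9 and 110 in wild type. The means differed 10.4-fold, and wild type 3 was itself above the limit of 100. Gje1, a connexin-family protein known from the lens, had 305, 366 and 344 against 25.7, 24.9 and 33.9, which is 12-fold. The 8 lens markers summed to 112 to 165 normalized reads in the KO libraries and 139 to 5941 in wild type, and the highest sum, in wild type 3, came with 33.9 normalized reads of Gje1, the highest of the wild-type values. Only 2 of the 8 lens markers were high enough to test, and the part of lens RNA in the Gje1 values was not tested. Tmem26, a membrane protein used as a marker of beige fat cells, had 210, 329 and 282 against 84.7, 44.4 and 37.7. Wild type 1 was 2.25 times wild type 3, the widest wild-type spread of the group. The fold of the means was 4.92, and the ratio used by the rule was 4.85, or 6.53 without wild type 1.

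The enzymes were Akr1b8, Setdb2 and B4galnt2. Akr1b8, an aldo-keto reductase that reduces aldehydes, had 623, 537 and 580 normalized reads in the KO libraries and 61.6, 66.0 and 70.6 in wild type, 8.78-fold higher. Close relatives of it lie in the same stretch of chromosome 6. Of these, Akr1b10 had 302 ± 9.27 against 307 ± 14.6 normalized reads (SD, n = 3 each). Akr1b7 had 4.09 ± 1.46 against 5.16 ± 3.69, so the higher count of Akr1b8 was not seen for those copies. Akr1b3, 36.7 kb away, had 2668 ± 138 against 2307 ± 77.7. That is 1.16-fold higher and was not called by limma (adjusted p = 0.116). Setdb2, a SET-domain protein that methylates lysine 9 of histone H3, had 155, 123.4 and 159 against 18.0, 20.6 and 23.5, which is 7.04-fold. The annotation also holds a longer model, Gm45935, over the same span and strand, listed at 0 in all 6 libraries. No source used here says how reads shared by overlapping models were counted, so the Setdb2 level may be incomplete in both groups. B4galnt2, the glycosyltransferase that completes the Sda antigen, had 177, 115 and 138 against 19.7, 21.6 and 23.5, or 6.63-fold.

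The remaining coding genes encode a lipid-binding, a membrane-associated and a microtubule protein. Bpifb6, a member of the lipid-binding BPI-fold family that stays in the endoplasmic reticulum, showed the largest difference, with 4427, 4271 and 4433 normalized reads in the KO libraries and 67.6, 97.4 and 102 in wild type. Its mean was 4377 ± 92.1 against 88.9 ± 18.6 (SD, n = 3 each), 49.2-fold, and the KO libraries differed by no more than 1.04 times. Tc2n, a protein with a tandem pair of C2 domains, had 139, 358 and 157 against 31.7, 39.0 and 32.0, or 6.37-fold. KO 2 stood apart: without it the ratio used by the rule was 4.23 in place of 6.21. Togaram2, a microtubule-binding protein with TOG domains, had 128, 135 and 108 against 16.3, 31.4 and 21.6, or 5.34-fold.

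The other 3 of the 16 are noncoding RNAs. Foxo6os is named for the opposite strand of the transcription factor gene Foxo6. It had 298, 262 and 291 normalized reads in the KO libraries and 40.2, 29.2 and 32.9 in wild type, a fold of 8.31. LOC115488208 had 403, 453 and 390 against 60.7, 69.3 and 86.6, or 5.75-fold. LOC115487155 had 68.8, 166 and 65.4 against 7.70, 7.58 and 11.3, or 11.3-fold. For LOC115487155 KO 2 was again apart from the other KO libraries. Without KO 2 its ratio was 6.91 in place of 10.3 and it no longer met the limit of 100, so that its membership rests on that library.

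**Figure D2:**
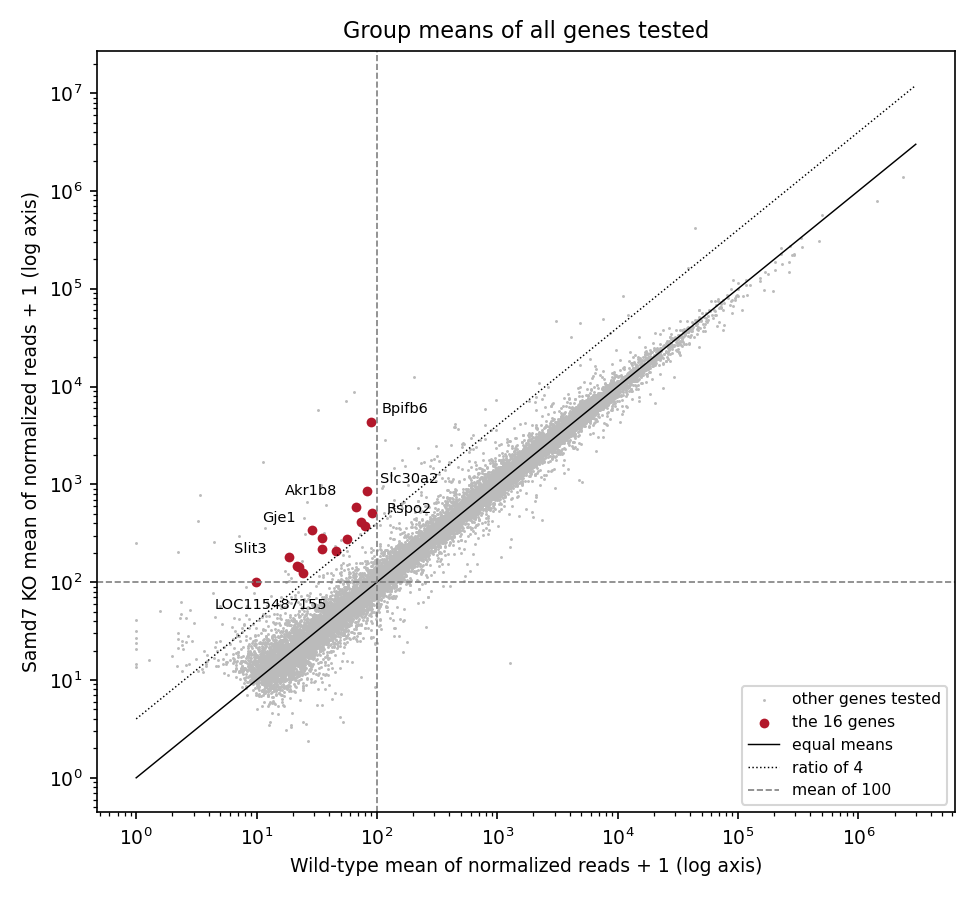
Mean of normalized reads + 1 in Samd7 KO against wild type (both log axes) for the genes tested, with the 16 genes in red, the limits of 100 dashed, equal means solid and a ratio of 4 dotted. The 16 genes fill the upper left corner that the rule marks off, with Bpifb6 at 4377 the highest of them; other points in that corner are genes left out by symbol.

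Within a group, no library was high or low for all 16 genes, though by the median over genes the wild-type libraries differed more than the KO ones. The widest deviation of a single gene was in KO 2, at 0.86 on the log2(value + 1) scale, against 0.69 in wild type 1. The KO libraries differed from their own group mean by a median over genes of 0.04, -0.01 and -0.02 on the log2(value + 1) scale, and the wild-type libraries by -0.12, -0.01 and 0.10. KO 1 was the highest KO library for 6 of the 16 genes, KO 2 for 7 and KO 3 for 3. Wild type 1 was the highest wild-type library for 4, wild type 2 for 4 and wild type 3 for 8. The authors' deposited table, from DESeq2, gives log2 fold changes from 2.21 (standard error 0.23) for Scube1 to 5.63 (0.13) for Bpifb6.

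Levels of different genes can be set side by side only per length, which was possible for the 14 genes with an exon annotation. In wild type they lay between 2.88 (Slit3) and 53.3 (Bpifb6) normalized reads per kilobase of exon, and none reached the median of the tested genes, 169. In the KO libraries the range was 21.0 (Scube1) to 2623 (Bpifb6), where the median of the tested genes was 176. Only 4 of the 14 were then above that median: Bpifb6, Akr1b8 at 387, Slc30a2 at 239 and Gje1 at 228. Setdb2 at 36.0, Tc2n at 35.7, Slit3 at 29.8 and Togaram2 at 21.9 remained low per kilobase in the KO libraries. The Setdb2 value may be incomplete because of the overlapping model Gm45935. Most of the 14 genes thus had a moderate or low level per kilobase in the KO libraries. The rule asks for a wild-type mean under 100 and a ratio of at least 4. It therefore favours such levels, and nothing is read from them.

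The genes nearest each limit are given as a description. Just under the wild-type limit stood Rspo2 at 90.0 and Bpifb6 at 88.9 normalized reads, and just above it Cplane2 (109 in wild type, 920 in KO), Xk (110 and 973), Hbb-bt (114 and 505), Erich6 (128 and 538) and Fgf2os (130 and 1233). Just inside the KO limit stood LOC115487155 at 100.1 and Togaram2 at 123.4, and just outside it Fam83g at 76.7, F13a1 at 69.3, Atp10b at 62.0, Glycam1 at 61.1 and Rarres1 at 55.7. Nearest inside the ratio limit were Scube1 at 4.55 and Bmp15 at 4.72, and nearest outside Kdf1 at 3.63, H2-Q4 at 3.48, Gbp9 at 3.23, Adgrg6 at 3.04 and Bcl3 at 3.02. Several genes just outside 1 limit were far past the others: Atp10b had a ratio of 26.8, and Fgf2os a higher KO mean than 15 of the 16 genes.

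The promoters of the 16 genes were compared by sequence, which the rule did not use. RefSeq windows on GRCm38.p6, from 250 bases before to 50 after a transcript start, were found for 13 of the 16 genes, with a second window for Tc2n. No window was matched for Gje1, Rspo2 and Togaram2. A window was called CpG-rich when its CpG count was at least 0.6 of the count expected from its C and G content and its GC share at least 50%. Those of 4 genes are shown for the range of CpG content among these genes, each 5′ to 3′ on the gene's strand with every CpG in capitals. Foxo6os (chr4:120290883-120291182, plus strand) and Bpifb6 (chr2:153900138-153900437, plus strand) are CpG-poor, at 0.109 and 0.156 of expectation. Setdb2 (chr14:59440831-59441130, minus strand) and Slit3 (chr11:35121206-35121505, plus strand) are CpG-rich, at 0.904 and 0.928.
Foxo6os: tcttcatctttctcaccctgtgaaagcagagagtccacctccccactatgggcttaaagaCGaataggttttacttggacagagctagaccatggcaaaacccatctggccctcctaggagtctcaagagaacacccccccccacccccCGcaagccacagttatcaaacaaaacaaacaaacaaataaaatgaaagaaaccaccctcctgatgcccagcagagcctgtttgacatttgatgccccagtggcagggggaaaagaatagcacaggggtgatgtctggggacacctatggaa
Bpifb6: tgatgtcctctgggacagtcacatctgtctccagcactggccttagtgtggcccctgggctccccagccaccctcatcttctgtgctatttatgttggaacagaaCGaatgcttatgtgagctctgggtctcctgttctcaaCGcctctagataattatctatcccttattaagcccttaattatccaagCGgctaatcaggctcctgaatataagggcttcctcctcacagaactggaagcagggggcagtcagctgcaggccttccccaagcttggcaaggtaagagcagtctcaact
Setdb2: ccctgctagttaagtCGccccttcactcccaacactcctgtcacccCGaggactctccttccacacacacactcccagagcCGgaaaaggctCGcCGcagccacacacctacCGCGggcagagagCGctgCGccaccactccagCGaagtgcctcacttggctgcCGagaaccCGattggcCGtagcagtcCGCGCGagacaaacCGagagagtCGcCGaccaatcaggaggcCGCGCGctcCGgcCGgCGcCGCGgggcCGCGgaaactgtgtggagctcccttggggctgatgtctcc
Slit3: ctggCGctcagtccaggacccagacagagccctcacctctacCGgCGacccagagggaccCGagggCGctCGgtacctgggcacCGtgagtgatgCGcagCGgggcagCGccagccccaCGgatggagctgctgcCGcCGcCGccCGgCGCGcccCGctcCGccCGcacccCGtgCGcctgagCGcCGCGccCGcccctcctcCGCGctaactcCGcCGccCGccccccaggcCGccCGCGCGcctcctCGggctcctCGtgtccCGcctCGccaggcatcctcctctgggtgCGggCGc

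The Foxo6os window holds 2 CpG pairs and the Bpifb6 window 3, against 29 in Setdb2 and 41 in Slit3. So the gene with the largest fold change has one of the poorest promoters and Slit3 the richest. In all, 6 of 13 genes (46.2%) had a CpG-rich window: Slit3, Setdb2, B4galnt2, Slc30a2, Scube1 and Tc2n. The share was 62.7% over the tested genes, 36.0% over all genes with a window and 23.1% over the other named genes under the same wild-type limit with at least 1 read. With the stricter limits of 0.75 and 55% it was 5 of 13 (38.5%) against 43.2% of the tested genes. Composition thus divided the group: 7 of 13 genes lacked a CpG-rich window, and with 13 genes no difference from any of these backgrounds is read. For Slc30a2 and Tc2n the windows lie inside the annotated gene span and belong to a transcript that starts there.

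**Figure D3:**
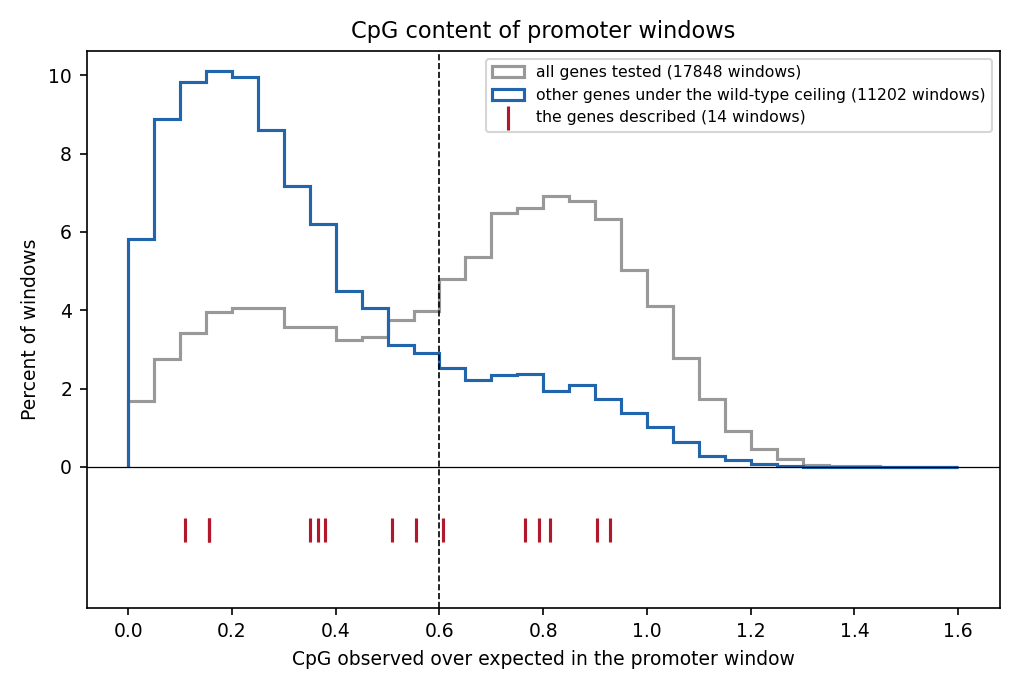
CpG count over expectation (horizontal axis) against the percent of promoter windows, for all tested genes in grey and for other genes under the wild-type limit in blue; red ticks below the axis are the 14 windows of the genes described and the dashed line is at 0.6. The red ticks spread from 0.109 to 0.928 on both sides of the line; those of Bpifb6 and Bmp15 coincide near 0.16.

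Short motifs of retinal and general factors were searched on both strands of the same windows. TAATCC, bound by the photoreceptor factors Crx and Otx2, was in 0 of 13 genes (7.44% of the tested genes), as were the nuclear receptor site AGGTCA (15.7%) and the AP-1 site TGACTCA (4.66%). That says only that these letters are not in these windows. The Ets site GGAAGT was in 3 of 13 (29.1%), and the E-boxes CAGCTG and CAGATG in 3 each (19.1% and 15.4%) and CACGTG in 1 (10.7%). TATAAA was in 2 (9.84%) and TGCTGA, the core of the Nrl and Maf site, in 2 (19.6%). No matches of different motifs overlapped, and no motif was found in more than 3 of the 13 genes. A match is a description of the letters and not a binding site.

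The flanking genes were not used to choose the 16, and the test across all genes was applied to them. An exception is Gm36499, which met the limits of the rule itself and was set aside by its symbol, so the counts are given with and without it. The next annotated gene on each side that does not overlap was taken for each of the 16, which gave 32 genes, of which 19 were tested. Of these, 8 were higher in the libraries labelled KO and 0 were lower by limma at an adjusted p under 0.05, against 6.79% higher and 5.21% lower over all tested genes. That is 42.1% of the tested flanking genes, spread over 7 of the 16 loci, and 7 of 18 without Gm36499. At an unadjusted p under 0.05 the counts were 10 higher and 0 lower, and edgeR and DESeq2 also gave 8 and 0. The share of all tested genes at that unadjusted limit is not given. Counts at it, here and below, therefore have no background beside them. All tested genes within 100 kb, a window chosen after seeing the data, gave a similar share, with 22 of 55 (40%) higher and 0 lower, around 10 of the 16 genes, and 21 of 54 without Gm36499. At an unadjusted p under 0.05 these counts were 25 and 2, and edgeR gave 22 and 0 and DESeq2 20 and 0. The median log2 fold change was 0.29, against 0.00 for all tested genes. Leaving out the 3 genes that overlap one of the 16, the count was 19 of 52, and over 10 kb away it was 12 of 44.

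The share of higher genes was smaller farther away. Between 100 and 250 kb 20 of 70 tested genes (28.6%) were higher and 0 lower by limma (23 and 5 at an unadjusted p under 0.05, 20 and 0 by edgeR, 21 and 0 by DESeq2). From 250 to 500 kb it was 6 of 65 (9.23%) with 1 lower, and from 500 to 1000 kb 12 of 163 (7.36%) with 12 lower, near the 6.79% and 5.21% over all genes. As a comparison, tested genes within 100 kb of any of the other 1360 genes called higher were themselves higher in 582 of 4420 cases (13.2%) and lower in 169 (3.82%). Those other genes were taken for their call alone, not for a like size of change or a like level, so this is no matched background. Neighbours of 1 locus share their position, some overlap each other, and they are not independent, and no test of the share was made. With the other tests, filters and scalings tried, with the replicate block and with each library left out in turn, the count within 100 kb stayed between 16 and 23 higher genes, with 1 lower gene only when KO 3 was left out. Between 100 and 250 kb it stayed between 15 and 22, with 1 lower gene only when KO 1 was left out.

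**Figure D4:**
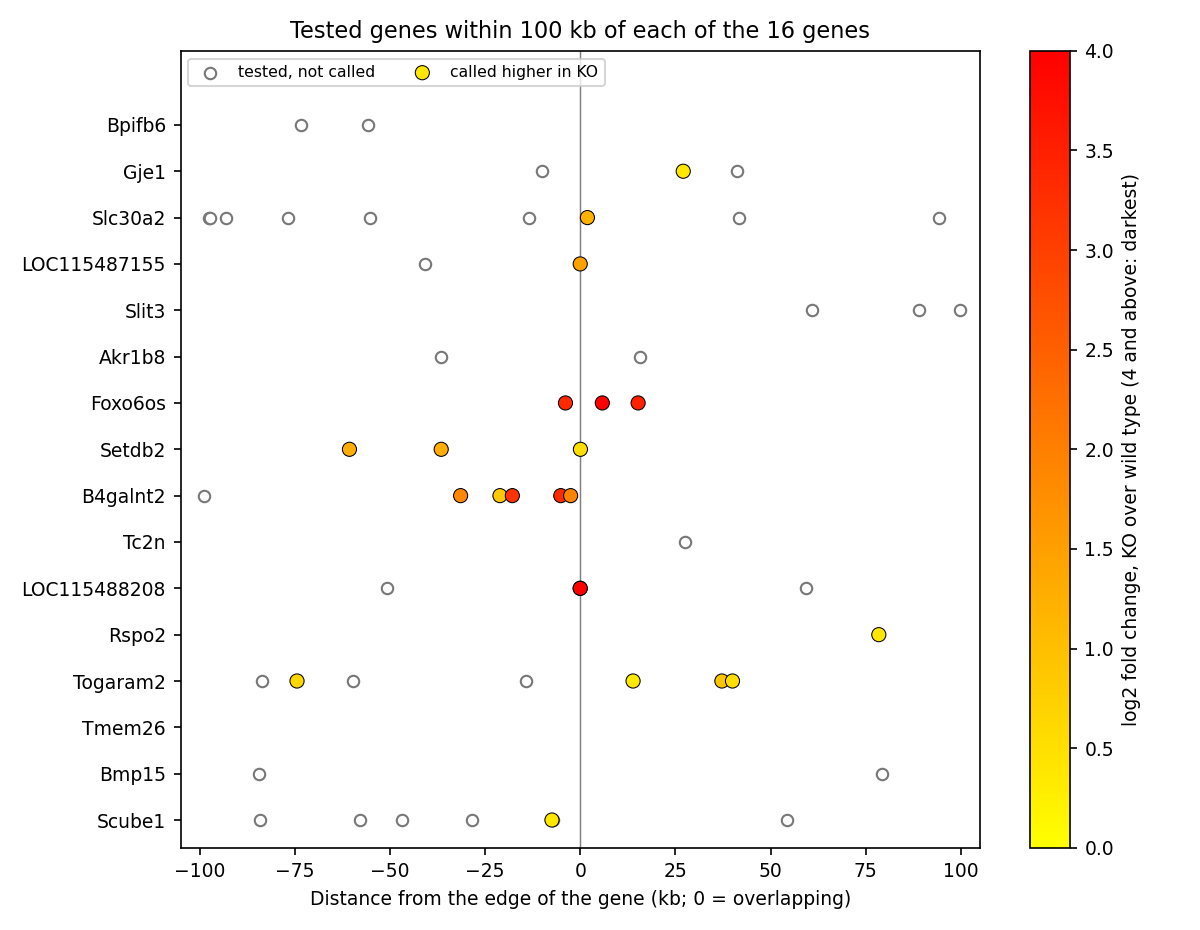
Tested genes within 100 kb of each of the 16 genes, by distance in kb from its edge (negative: lower coordinate; 0: overlapping); filled points were higher in Samd7 KO at a limma adjusted p under 0.05, coloured by log2 fold change, and open points were not called. The filled points gather at B4galnt2, Foxo6os, Setdb2 and Togaram2, while Bpifb6, Slit3, Akr1b8, Tc2n and Bmp15 have open points only and Tmem26 has none; the 2 genes that overlap LOC115488208 coincide at 0.

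B4galnt2 (chr11:95863559-95914960, minus strand) had the most. Of 6 tested genes within 100 kb, 5 were higher, all on its lower-coordinate side within 31.4 kb. They are not all separate: Abi3 overlaps both Phospho1 and Gngt2, which lie on the opposite strand. Gngt2 had far more reads than Abi3 and Phospho1, and reads of the overlapping genes were not told apart. The nearest, the noncoding 4833417C18Rik at 2.51 kb, had 754, 484 and 727 normalized reads in the KO libraries and 139, 196 and 164 in wild type (log2 fold change 1.96, SE 0.18, limma adjusted p = 2.17e-05). Gngt2, the cone transducin gamma subunit at 17.8 kb and itself one of the cone markers, had 48605, 42429 and 42045 against 4395, 5171 and 5023 (9.12-fold, limma adjusted p = 2.28e-10). The noncoding Gm38959 was 10.7-fold higher (93.4 ± 26.1 against 8.75 ± 4.14, SD, n = 3 each). Phospho1, a phosphatase of bone mineralization, was 3.79-fold higher, and Abi3, an actin regulator known from microglia, 1.81-fold. No library overlapped between the groups for any of these 5. Among all tested genes 15.9% had every KO library above every wild-type one. The 5 were named as called genes, so nothing more is read from that order. On the far side, Igf2bp1 was too low to test, with 9.88 ± 5.41 against 6.57 ± 5.57 normalized reads (SD, n = 3 each). The higher genes were therefore seen on one side of B4galnt2 only, with none tested within 100 kb on the other.

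All 3 tested genes around Foxo6os (chr4:120291133-120303893, plus strand) were higher. Foxo6, a forkhead factor that starts 3.87 kb away on the opposite strand, had 2183, 1399 and 865 normalized reads in the KO libraries and 169, 110 and 133 in wild type. Its mean was higher by 10.8-fold (a log2 fold change of 3.34, SE 0.27, limma adjusted p = 5.70e-06). The KO libraries differed by more than a factor of 2 and none came near wild type. Among the other Foxo genes none of 3 passed the test. Gm36499, a noncoding model 5.81 kb on the other side, had 202, 203 and 208 against 1.71, 1.08 and 0.941, or 1 to 2 reads per wild-type library. It met the limits of the rule and was set aside by its symbol, so its values are a description. Gm36574 had 20.3, 23.8 and 21.2 against 0, 3.25 and 0.941 (limma adjusted p = 0.00200), a call lost with DESeq2. Farther out, Edn2, an endothelin and one of the reactive glia markers, lay 124 kb away and was 6.10-fold higher (limma adjusted p = 9.13e-06).

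**Figure D5:**
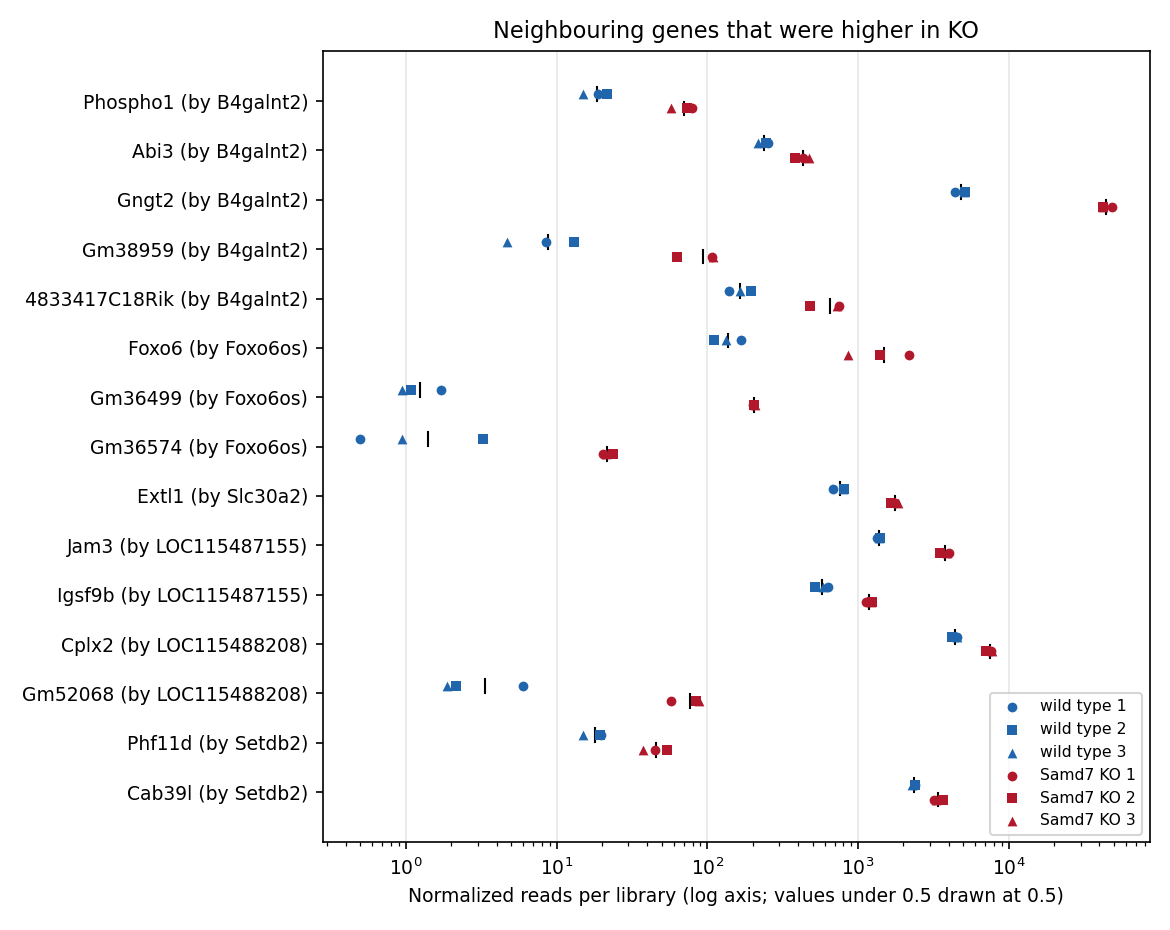
Normalized reads (log axis, values under 0.5 drawn at 0.5) in each library for 15 genes near one of the 16, with wild type in blue, Samd7 KO in red and a bar at the group mean. The genes were picked because they were higher; within each row the red markers lie right of the blue ones, from Gm36499 at about 1 read in wild type to Gngt2, whose lowest Samd7 KO library had 42045.

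Around Setdb2 (chr14:59402009-59440880, minus strand) all 3 tested genes were higher as well. Cab39l, a scaffold of the kinase Stk11, starts 54 bases from Setdb2 on the opposite strand, and its annotated start falls inside the Setdb2 window printed above. It had 3190, 3689 and 3294 normalized reads against 2407, 2387 and 2275 in wild type, 1.44-fold (log2 fold change 0.52, SE 0.08, limma adjusted p = 0.00131). So the head-to-head pair was higher together, at 7.04-fold for Setdb2 and 1.44-fold for Cab39l, from wild-type levels of 20.7 and 2356. As said above, the Setdb2 level may be incomplete. Phf11d, a zinc finger gene of a tandem family, was 2.52-fold higher (45.5 ± 8.20 against 18.1 ± 2.61, limma adjusted p = 0.0104). Phf11b was 2.63-fold higher (limma adjusted p = 0.0393), a call lost in 8 of 13 alternatives. The Phf11 copies are alike, and reads may be split between them.

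Both unnamed noncoding RNAs overlap a higher gene. LOC115487155 (chr9:27137238-27148586) lies within an intron of Jam3 on the same strand, with 0 of the 11 Jam3 exons in its span. Jam3, a junctional adhesion molecule, had 3994, 3502 and 3923 normalized reads against 1343, 1411 and 1386 (2.76-fold, log2 fold change 1.46, SE 0.08, limma adjusted p = 2.55e-07). Unspliced Jam3 RNA would cover the same bases, and reads of the pair were not told apart. Igsf9b, a synaptic adhesion protein at 151 kb and the next gene on that side, was 2.06-fold higher (1192 ± 57.3 against 579 ± 55.2, SD, n = 3 each, limma adjusted p = 3.72e-05). LOC115488208 (chr13:54286873-54399433, minus strand) spans all 4 exons of Cplx2 on the opposite strand. Cplx2, a complexin of synaptic vesicle release, had 7654, 7051 and 7715 against 4520, 4232 and 4561 (1.68-fold, limma adjusted p = 2.51e-05). No source used here says whether reads were assigned by strand, so this pair was not told apart either. Gm52068, inside the same span, had 57.6, 84.0 and 87.6 against 5.99, 2.16 and 1.88 (limma adjusted p = 2.54e-05).

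LOC115488208 also held the largest group between 100 and 250 kb, where 6 of 12 tested genes were higher. Cltb, a clathrin light chain at 193 kb, had 53842 ± 2450 against 12171 ± 341 normalized reads (SD, n = 3 each), 4.42-fold, with a limma adjusted p of 5.79e-10. Higd2a, Arl10, Nop16, 4833439L19Rik and Simc1 were 1.98-, 1.93-, 1.82-, 1.79- and 1.5-fold higher. Slc30a2 (chr4:134343046-134354484, plus strand) had 5 of 12 higher at that distance, of 1.43-fold (Selenon) to 2.58-fold (Cd52). Within 100 kb it had 1 of 9, Extl1, a glycosyltransferase of the exostosin family 1.89 kb away, with 1761, 1663 and 1843 against 683, 808 and 791 (2.31-fold, log2 fold change 1.21, SE 0.10, limma adjusted p = 6.48e-06). These loci differ from B4galnt2, whose 6 tested genes between 100 and 250 kb held 0 that were higher.

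Of the remaining loci, Togaram2 (chr17:71673156-71729671) had the most called genes within 100 kb, where 4 of 7 tested genes were higher by 1.27- to 1.88-fold: Gm30140, Trmt61b, Clip4 and Pcare, a photoreceptor cilium protein (23799 ± 1421 against 18700 ± 1047, SD, n = 3 each, limma adjusted p = 0.00616). Of these, Clip4 and Gm30140 overlap on opposite strands, and reads of the pair were not told apart. Near Rspo2 the translation factor subunit Eif3e was 1.31-fold higher (limma adjusted p = 0.0111). Near Gje1 the pseudogene Gm8355 was 1.29-fold higher, and near Scube1 the tubulin ligase-like gene Ttll12 1.29-fold, calls lost in 4 and 5 of 14 alternatives. Adgrg6, an adhesion receptor 170 kb from Gje1 and just under the ratio limit of the rule, had 129, 128 and 154 normalized reads against 56.5, 37.9 and 38.6 (3.09-fold, limma adjusted p = 0.000337). For Bpifb6, Slit3, Akr1b8, Tc2n and Bmp15 none of the 2, 3, 2, 1 and 2 tested genes within 100 kb were called in either direction by limma, edgeR or DESeq2. At an unadjusted p under 0.05, 1 gene by Akr1b8 and both genes by Bmp15 were higher, and Tmem26 had no tested gene there. Farther from Akr1b8, at 177 and 220 kb, Slc35b4 and Lrguk were 1.46- and 1.69-fold higher (limma adjusted p = 0.00504 and 0.00334). The flanking family members of Bpifb6, namely Bpifb2, Bpifb3, Bpifb4 and Bpifa2, had means of at most 8.91 normalized reads in either group. None of them was high enough to test. Bpifb2 had 10.2, 3.11 and 13.5 in the KO libraries against 2.57, 2.16 and 2.82 in wild type. Bpifa2 had 6.77, 5.18 and 3.85 against 3.42, 1.08 and 0.941. Bpifb3 and Bpifb4 had means of 0 in the KO libraries against 0.285 and 0.931. Bpifb6, the gene with the largest change, had 0 called of 2 tested genes within 100 kb, neither of them adjacent to it. B4galnt2, at 6.63-fold, had 5 of 6.

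Known partners and relatives of the 16 genes were listed with the genes in view and with earlier results of these data known. The share that limma called higher was near that of all tested genes, and nothing is read from it. Of 89 tested, 6 were higher and 3 lower, against 6.79% and 5.21% of all tested genes. Foxo6 is among the higher ones and was already counted as a flanking gene of Foxo6os. Lgr5, a receptor of Rspo2, was higher, with 1276, 1761 and 1455 normalized reads against 624, 535 and 658 (2.47-fold, log2 fold change 1.30, SE 0.13, limma adjusted p = 3.48e-05). The other 6 tested genes of that group did not pass, and among them Rspo4 had 138 ± 18.9 against 130 ± 21.7. Scube2 went the other way from Scube1, with 36.1, 56.0 and 27.9 against 185, 141 and 178 (4.19-fold lower, log2 fold change -2.09, SE 0.25, limma adjusted p = 0.000174). Scube3 did not pass, at 103 ± 22.6 against 149 ± 20.5. The calls for Lgr5, Foxo6 and Scube2 held in all 14 alternatives.

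Smad4, Srgap3, Atf7ip and Clasp1 were higher by 1.30- to 1.45-fold, and Slc39a4 and Robo4 lower by 2.41- and 1.43-fold. Each of these 6 lost its call in 2 to 8 alternatives. Of the 4 tested TOG-domain microtubule genes related to Togaram2, limma called 1 higher, Clasp1. By edgeR, by DESeq2 and at an unadjusted p under 0.05 the number was 3, with 0 lower. Slit1 and Slit2, the other Robo ligands, had 338 ± 25.1 against 368 ± 18.0 and 1656 ± 425 against 1405 ± 92.1 normalized reads and did not pass. Neither did Gdf9, the oocyte partner of Bmp15 (53.4 ± 4.56 against 40.5 ± 9.78). Of 25 tested zinc transporters and metallothioneins other than Slc30a2, 0 were higher by limma, edgeR or DESeq2, and 3 at an unadjusted p under 0.05. Of 9 tested connexins other than Gje1, 0 were called by any of these tools, with 3 higher and 1 lower at an unadjusted p under 0.05. Wider families were set by symbol. Among 292 other solute carriers 20 were higher and 23 lower, among 106 other secreted growth factors 6 and 8, among 103 other enzymes of the cytochrome P450 and aldo-keto type 6 and 8, and among 139 Sox, Fox, Gata, Tbx and nuclear receptor factors 13 and 4. Among 3 other BPI-fold genes limma and edgeR called 0, and DESeq2 called 1 lower, the number also lower at an unadjusted p under 0.05. Many relatives were too low to test, among them 13 of 16 listed BPI-fold genes and 10 of 19 connexins.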

How the data were processed

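RNA of 6 retinas was sequenced. From the labels' protocols, cDNA of the polyadenylated fraction was prepared with a low-input kit, sheared and amplified. The submitters' processing notes name the builds GRCm38 and mm10 and the tools STAR 2.7.3a, HTSeq 0.12.4, cutadapt 3.0, SAMtools 1.9, DRAGEN and DESeq2; what each did, and whether strand was used, is not given in sources used here. The deposited signal per library is the authors' read count over 1 size factor, and all 166478 values above 0 gave whole reads within 0.01. The authors' deposited table also holds log2 fold changes, Wald scores and p-values, of which only the log2 values and their errors were used.

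As the values were normalized and not raw counts, limma-trend (limma 3.58.1, R 4.3.3) on log2(value + 1) was the main test, over 20277 genes with at least 10 in at least 3 libraries, with Benjamini-Hochberg adjustment and calls at 0.05. A log2 fold change on that scale understates low genes; a fold is the ratio of group means. edgeR 4.0.16 and DESeq2 1.42.0 on recovered reads, other filters, pseudocounts, scaling, leaving out each library and a replicate block were alternatives. Replicates differed by 7.20 to 33.5 times the noise of counting alone (chi-square over its degrees of freedom).

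The 16 genes and all lists were chosen with earlier results of these data known. The rule for named genes took the 16, the genes nearest each limit, Samd7 and called adjacent genes; the others near a locus, and the relatives, were named after their values were seen. Positions and promoters are from RefSeq on GRCm38.p6, and exon lengths from GENCODE vM21.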

Additional observations from a re-analysis of the deposited data

How the results depend on the processing

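The number of genes meeting the rule was 16, and 9 and 27 with a wild-type limit of 50 and 200, 49 and 7 with a ratio of 2 and 8, and 15 to 18 with each library left out. Over all genes 1189 were called at an adjusted p under 0.01 in place of 2432, and 1297 to 3214 with each library left out: leaving out KO 3 gave 1453, wild type 2 1452 and wild type 3 1297, with fewer samples fitted. Of 19 tested adjacent genes 8 were higher; taking every tested gene within 100 kb instead, which adds 3 overlapping genes and others and leaves out Igsf9b at 151 kb, gave 22 of 55. With the replicate block 1624 genes and 7 adjacent genes were called; same-numbered libraries correlated at -0.182, -0.133 and -0.0141, so the numbers do not pair the samples. Leaving out each library gave 6 to 8 adjacent genes. With 3 libraries per group no test of outlying libraries was made. Read depth limits genes near 10 reads.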
